A study of Mus musculus with 4 samples.

Results

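Small leucine-rich proteoglycans are secreted proteins of the extracellular matrix, and 8 of their genes were followed here in mouse embryonic fibroblasts (MEFs) with and without Ip6k1: Dcn, Bgn, Aspn, Lum, Fmod, Prelp, Omd and Ogn. The genes were chosen by name, and their values were taken from every non-control probe of the array whose gene name was one of these 8 out of 27827 gene names. They had 11 probes, of which 9 entered the tests, at least 1 for each member. Tests were limited to probes with a signal well above background in both lines of a genotype, whichever it was, and 14334 gene names had such a probe.

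The series held 4 MEF lines, 2 that were Ip6k1+/+ and 2 that were Ip6k1-/-, grown from littermate embryos at embryonic day 14 after a heterozygous mating. All 4 lines carried SV40 large T antigen, which was used to immortalise them, and were passaged 2 times after thawing and taken while growing exponentially. Ip6k1 encodes an inositol hexakisphosphate kinase, an enzyme that makes inositol pyrophosphates, and the embryos themselves lacked it, so that the deletion was not limited to fibroblasts. Each line was grown from 1 embryo and hybridised to 1 array, so that the spread within a genotype is the spread between 2 littermates with the handling of their cultures.

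Each small leucine-rich proteoglycan has a curved core protein built of leucine-rich repeats, which binds collagen fibrils and sets their diameter and spacing, and many carry sugar chains of chondroitin, dermatan or keratan sulfate. Class I (Dcn, Bgn, Aspn), class II (Lum, Fmod, Prelp, Omd) and class III (Ogn) differ in their N-terminal parts and in these chains. Fibroblasts and the cells of tendon, cartilage, bone and cornea are known sources, and several members also bind growth factors of the TGF-beta family or cell surface receptors. Decorin, for example, is known to bind and dampen the epidermal growth factor receptor.

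In these lines the 8 genes showed 3 kinds of pattern. Dcn and Prelp were lower in both Ip6k1-/- lines than in both Ip6k1+/+ lines. Aspn, Lum, Fmod, Omd and Ogn differed more between the lines of one genotype than between the genotypes, and the line with the higher signal was the one numbered 1 in each genotype. Bgn, on its brighter probe, differed by less than 1 log2 unit between any of the 4 lines. No member passed the test of the genotype difference across all probes (limma with Benjamini-Hochberg adjustment).

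The arrays carry probes of 60 bases, and 3 of these sequences are given to show which stretch of transcript stands behind a result. The Dcn probe lies from position 1213 of its transcript, on mm9 chr10:96980233-96980292 (+ strand), and its capitals mark the 1 stop triplet, TAA, in the frame read from its first base, at base 55.
Dcn: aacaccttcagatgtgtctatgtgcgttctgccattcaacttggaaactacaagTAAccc
The brighter Bgn probe lies from position 927, on mm9 chrX:70738554-70738613 (+ strand), and has no stop triplet in the frame read from its second base.
Bgn: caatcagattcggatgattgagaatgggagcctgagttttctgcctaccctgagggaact
Prelp has a probe from position 441, on mm9 chr1:135811621-135811680 (- strand), which was in no line well above background, while the Prelp probe used for the results starts at position 3465.
Prelp: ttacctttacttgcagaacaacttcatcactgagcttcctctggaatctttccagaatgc
Probe positions are those of the array files, which name the build mm9.

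The targeted gene was examined first, and its probes followed the labels. Probe A_51_P103718 of Ip6k1 had a log2 signal of 2.46 and 2.61 in Ip6k1+/+ MEFs, against -1.98 and -1.23 in Ip6k1-/- MEFs. Its adjusted p was 0.367 in limma. The other probes, A_51_P213766 and A_52_P413035, overlap each other and were well above background in neither Ip6k1-/- line. They were at least 34.0-fold and 32.7-fold higher in Ip6k1+/+ MEFs. For these limits, each dim array was given the lowest signal that counted as well above background on it, or the measured signal if that was higher. The mean of the bright genotype was divided by the mean of these signals. On the signals as measured, the limma adjusted p was 0.0355 for each of these 2 probes. With dim values raised to the lowest signal well above background, 0 probes of the array passed limma's adjusted threshold. A log2 signal of 0 stands for the 75th percentile of an array, which was a processed intensity of 610 to 747, and 52.0% to 55.6% of the probes of an array were well above background. All 9 fibroblast markers examined, among them Col1a1, Pdgfrb and Vim, were well above background in the 4 lines. By the 2-fold rule defined below, 1 of the 9 was lower in Ip6k1-/- MEFs, the growth factor receptor Pdgfrb, at 4.67 and 4.45 against 3.34 and 3.39 (difference -1.20, standard error 0.19, limma). All 4 skeletal muscle markers, Cdh1 and Krt14 of epithelium, Pecam1, Cdh5 and Tek of endothelium, and Ptprc and Emr1 of blood cells were in no line well above background. Other markers of these lists were measured, Kdr of endothelium and Cd68 of blood cells on all 4 arrays and Krt5 of epithelium on 2. Kdr was at -3.66 and -3.99 against -2.94 and -1.59, a difference of 1.56 (standard error 0.55, limma).

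**Figure D1:**
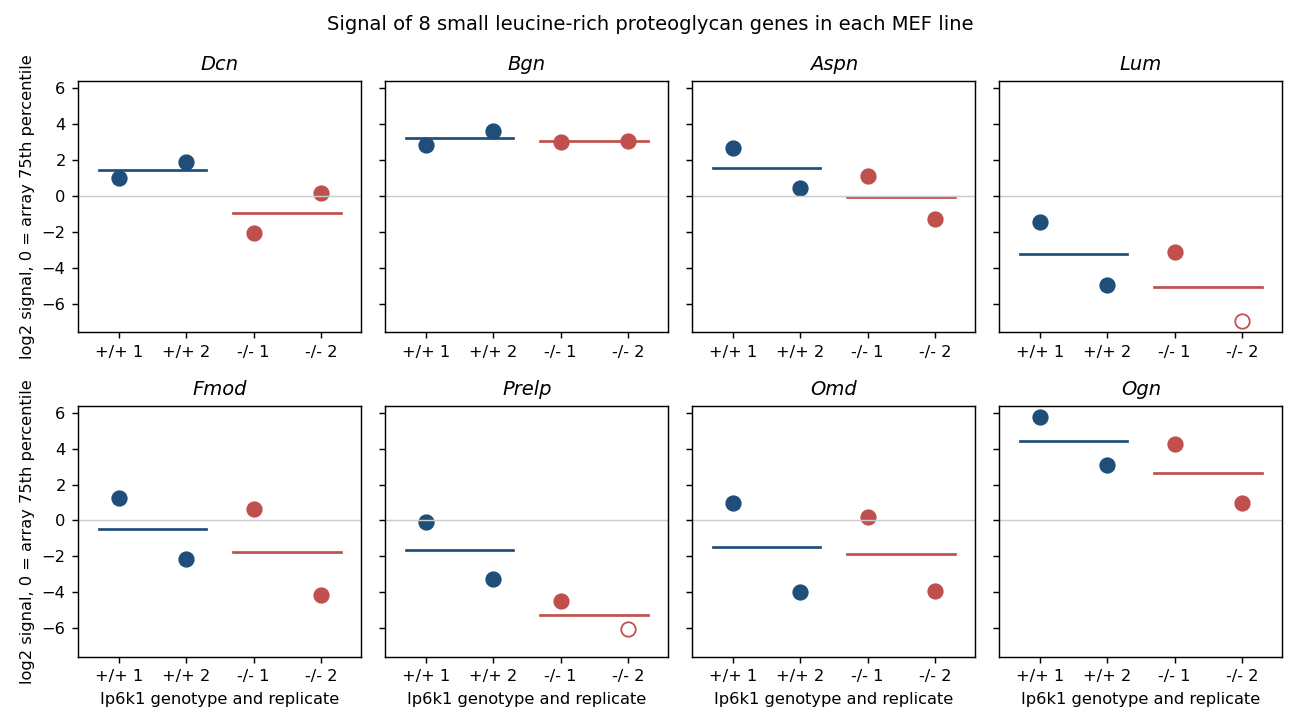
Log2 signal of the 8 genes in each MEF line, relative to the 75th percentile of its array, with 1 point per line and a bar at the mean of each genotype. Open points were not well above background. The 4 points of Dcn and of Prelp separate by genotype, those of Bgn lie close together, and line 1 lies above line 2 in both genotypes for Aspn, Lum, Fmod, Omd and Ogn. Levels of different genes come from different probes and are not to be compared.

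The first question was whether the genotypes differed in the class I members. Values are given for line 1 and then line 2 of a genotype, the numbers being the replicate numbers of the labels. Dcn, which encodes decorin, had a log2 signal of 0.99 and 1.89 in Ip6k1+/+ MEFs, against -2.09 and 0.18 in Ip6k1-/- MEFs. The values of the genotypes did not overlap, and the lower of the Ip6k1-/- lines was line 1. The mean was 1.44 ± 0.63 (SD, n = 2) against -0.96 ± 1.60 (SD, n = 2), which is a 5.28-fold lower signal without Ip6k1. The difference was -2.40 on the log2 scale, with a standard error of 0.82 and a 95% interval from -4.55 to -0.25. Its limma p was 0.0355 unadjusted and 0.993 after Benjamini-Hochberg adjustment over the 21572 probes tested. A second Dcn probe, A_52_P252726, lies 36.8 kb from the first and was on no array well above background. These are bulk RNA samples, in which fewer cells of a type and less RNA per cell cannot be told apart.

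Bgn, which encodes biglycan, the closest relative of decorin and like it a carrier of chondroitin or dermatan sulfate chains, lies on the X chromosome. Its brighter probe had a log2 signal of 2.85 and 3.63 in Ip6k1+/+ MEFs, against 3.0 and 3.1 in Ip6k1-/- MEFs. The Ip6k1-/- values lay within the Ip6k1+/+ range. The difference was -0.20, with a standard error of 0.31 and a 95% interval from -1.02 to 0.61 (limma). Probe A_52_P19711, which lies upstream on the same gene at mm9 chrX:70737025-70737084, gave the opposite sign, with -4.61 and -4.17 in Ip6k1+/+ MEFs, against -3.80 and -3.46 in Ip6k1-/- MEFs. On this probe both Ip6k1-/- lines were the higher ones, by 0.76 on average (standard error 0.37, 95% interval -0.20 to 1.72, limma). The signals of this probe were near the lowest that counted as well above background, which was -5.20 to -4.68 on the 4 arrays. With normexp background correction its difference was 0.30. The sign for Bgn thus differed between the probes, but both intervals included 0, so that neither probe gave a clear direction. As Bgn is X-linked, the sex chromosomes of the lines were looked at. Xist, the RNA made from an inactive X chromosome, was at 3.55 in Ip6k1+/+ line 1 and 3.65 in Ip6k1-/- line 2, and not above background by the same criterion in the other lines. Eif2s3y, a gene of the Y chromosome, was well above background only in Ip6k1+/+ line 2 and Ip6k1-/- line 1, at 0.89 and 1.16. Each genotype thus held 1 line of each kind, and the lines numbered 1 were of different kinds in the 2 genotypes.

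Aspn encodes asporin, the class I member with a run of aspartate residues, which binds collagen and TGF-beta. Its log2 signal was 2.68 and 0.44 in Ip6k1+/+ MEFs, against 1.12 and -1.30 in Ip6k1-/- MEFs. The ranges of the genotypes overlapped, and line 1 was higher than line 2 in each, by 4.72-fold without the deletion and 5.37-fold with it. The genotype difference was -1.65, with a standard error of 1.09 and a 95% interval from -4.51 to 1.21 (limma).

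Lum and Fmod encode lumican and fibromodulin, class II members that carry keratan sulfate and share a binding region on collagen. Lum had a log2 signal of -1.46 and -4.97 in Ip6k1+/+ MEFs, against -3.15 and -6.95 in Ip6k1-/- MEFs, the last of which was not well above background. Fmod was at 1.25 and -2.17 and at 0.63 and -4.15, respectively. For both genes the ranges overlapped and the line numbered 2 was the lower one in each genotype. Between the lines, Fmod differed 10.7-fold in Ip6k1+/+ and 27.5-fold in Ip6k1-/- MEFs. For Lum the factor was 11.4 in Ip6k1+/+ MEFs, and at least 2.89 in Ip6k1-/- MEFs when line 2 was set to the array's lowest signal still well above background. The genotype difference was -1.83 for Lum (standard error 1.71, 95% interval -6.31 to 2.65) and -1.30 for Fmod (standard error 1.93, 95% interval -6.34 to 3.74) in limma. With the dim Lum value raised to that lowest signal, the Lum difference was -0.69.

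Prelp, a class II member with a basic N-terminal part that binds heparin, had the largest genotype difference of the 8. Its log2 signal was -0.07 and -3.25 in Ip6k1+/+ MEFs, against -4.47 and -6.04 in Ip6k1-/- MEFs, and Ip6k1-/- line 2 was not well above background. Both Ip6k1-/- lines were below both Ip6k1+/+ lines, and the Ip6k1+/+ lines were themselves 9.08-fold apart. The mean was -1.66 ± 2.25 (SD, n = 2) against -5.25 ± 1.11 (SD, n = 2), a 12.1-fold lower signal. The difference was -3.59, with a standard error of 1.19, a 95% interval from -6.72 to -0.47, and a limma p of 0.0320 unadjusted and 0.993 adjusted. With the dim value raised to the array's lowest signal still well above background, the difference was -2.91.

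Omd encodes osteomodulin, a class II member best known from bone and tooth matrix. It had a log2 signal of 0.99 and -3.99 in Ip6k1+/+ MEFs, against 0.19 and -3.94 in Ip6k1-/- MEFs. The 2 lines numbered 1 were alike and the 2 numbered 2 were alike, with 31.6-fold between them in Ip6k1+/+ and 17.5-fold in Ip6k1-/- MEFs. The genotype difference was -0.38, and its 95% interval from -5.92 to 5.17 was the widest of the 8 members (standard error 2.12, limma).

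Ogn, the class III member, encodes osteoglycin, also called mimecan. Its log2 signal was 5.76 and 3.10 in Ip6k1+/+ MEFs, against 4.26 and 0.98 in Ip6k1-/- MEFs. Line 1 of each genotype was the higher one, by 6.29-fold and 9.68-fold, and the ranges of the genotypes overlapped. The genotype difference was -1.81, with a standard error of 1.38 and a 95% interval from -5.42 to 1.80 (limma).

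**Figure D2:**
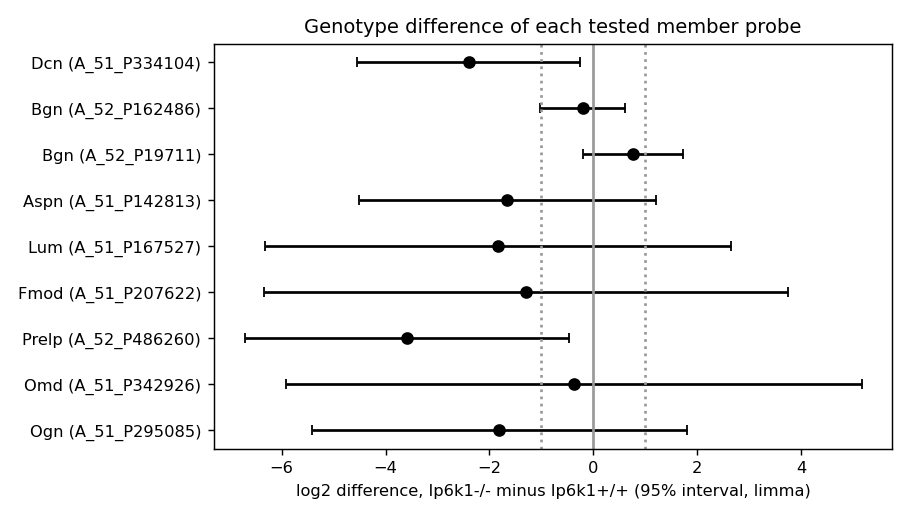
Log2 difference of Ip6k1-/- minus Ip6k1+/+ MEFs for the 9 tested probes of the 8 genes, with the 95% interval from limma (2 lines per genotype). Dotted lines mark a 2-fold difference. The intervals of Dcn and Prelp lie below 0 before any adjustment for the number of probes, and those of the other probes include 0.

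Counted together, 8 of 8 members had a difference below 0 on their brightest tested probe, with a median of -1.73 beside 0.04 over the 14334 gene names. Lines of the same number, which the labels do not pair, were also compared directly. Here 7 of 8 members were lower in Ip6k1-/- line 1 than in Ip6k1+/+ line 1, with Bgn the exception at 0.15. Between the lines numbered 2, 7 of 8 were lower in Ip6k1-/- MEFs, with Omd the exception at 0.05. The share of all gene names was not computed for any of these counts of members below 0. The study took a 2-fold difference of the means as its cutoff, by which 6 members (Aspn, Dcn, Fmod, Lum, Ogn and Prelp) were lower and 0 higher. The share of all gene names by this cutoff was not computed here, and the genotype ranges of Aspn, Fmod, Lum and Ogn overlapped. A stricter 2-fold rule was used here, asking for a mean difference of at least 1 on the log2 scale and a distance of at least 0.9 from the Ip6k1+/+ mean in every single Ip6k1-/- line. By this rule 2 members, Dcn and Prelp, were lower, where 2.44% of all gene names were, and 0 were higher, where 1.51% were. The same 2 members had every Ip6k1-/- value below every Ip6k1+/+ value, as did 13.2% of gene names. By limma 0 members passed an adjusted p of 0.05, all 9 probes being at 0.993, as against 0.014% of gene names, and 2, again Dcn and Prelp, had an unadjusted p below 0.05, as against 4.41%. Prelp passed the 2-fold rule with 1 line not well above background, and was not tested when all 4 arrays had to be above it. Without Ip6k1+/+ line 2, Dcn no longer passed the 2-fold rule, at a difference of -1.95. On leaving out each array in turn, the difference ran from -3.53 to -1.27 for Dcn and from -5.18 to -2.00 for Prelp, or 11.6-fold to 2.41-fold and 36.4-fold to 4.003-fold lower.

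The spread between lines was the other feature of these genes. The median distance between the lines of one genotype was 2.92 on the log2 scale in Ip6k1+/+ and 2.85 in Ip6k1-/- MEFs over the 8 members, beside 0.356 and 0.307 over all gene names tested. For 5 members, Aspn, Lum, Fmod, Omd and Ogn, this distance was larger than the genotype difference in both genotypes. The share of all gene names for which this held was not computed. Line 1 was above line 2 by at least 1 log2 unit in both genotypes for these 5 and for Prelp, 6 of 8 members, beside 3.61% of gene names. For Prelp the distance in Ip6k1-/- MEFs was 1.57 log2 units as measured and 0.21 once the dim value was raised to the lowest signal well above background, which left 5 of 8 members. For Lum it was 3.81 as measured and 1.53 in that case. The opposite order, with line 2 above line 1 by that much in both genotypes, was found for 0 members and 2.09% of gene names. Dcn came closest to it, at -0.90 in Ip6k1+/+ and -2.27 in Ip6k1-/- MEFs. Across all probes tested, the difference between lines 1 and 2 correlated at 0.48 between the genotypes, and 518 gene names had the order found for the 6 members. Probes are not independent replicates, and nothing in the labels says that lines of the same number were handled together.

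**Figure D3:**
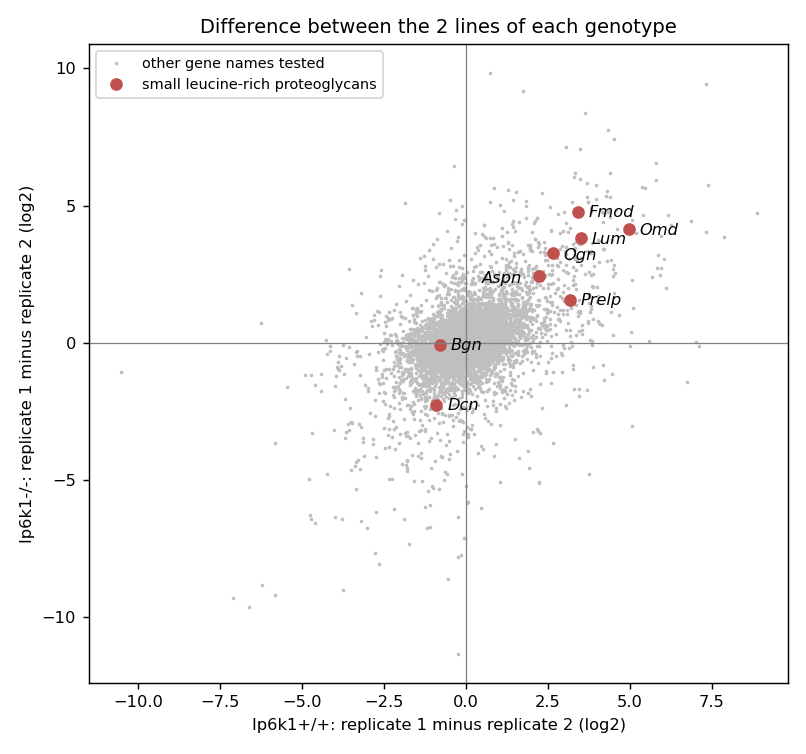
Difference between line 1 and line 2 on the log2 scale in Ip6k1+/+ (horizontal axis) and Ip6k1-/- MEFs (vertical axis), with 1 grey point per gene name tested and the 8 members in red. Aspn, Lum, Fmod, Prelp, Omd and Ogn lie in the upper right, Bgn near 0 and Dcn in the lower left.

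Markers of other connective tissue cells were set beside this pattern, since tendon and cartilage also make these proteoglycans. The 4 cartilage markers tested of 6 examined (Acan, Col2a1, Sox9, Comp) had a summed linear signal, as a multiple of the 75th percentile, of 9.94 and 2.79 in Ip6k1+/+ MEFs, against 5.14 and 0.423 in Ip6k1-/- MEFs. This sum was higher in line 1 of each genotype, as it was for the 8 members. Their own sum was 75.3 and 26.5 in Ip6k1+/+ and 32.4 and 12.04 in Ip6k1-/- MEFs. Such a sum weighs bright probes most, such as that of Ogn, at a log2 signal of 5.76 and 4.26 in the lines numbered 1. Dcn and Bgn had the opposite order of lines. Matn1, a marker of cartilage, was in no line well above background. By the 2-fold rule 1 of the 4 was lower in Ip6k1-/- MEFs, Col2a1, the main collagen of cartilage, at 2.15 and -1.10 against -1.07 and -3.18 on the log2 scale. Sox9, a transcription factor of cartilage cells, stood apart in 1 line, with 1.66 and 1.04 in Ip6k1+/+ and 1.07 and -2.75 in Ip6k1-/- MEFs. Comp, a cartilage and tendon matrix protein, had 1.00 and -3.34 against 1.24 and -3.53, the same order of lines as Omd.

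For tendon, 2 of 3 markers were tested, with a summed linear signal of 18.1 and 19.1 in Ip6k1+/+ MEFs, against 23.1 and 4.62 in Ip6k1-/- MEFs, and Tnmd was in no line well above background. Mkx, a tendon transcription factor, was lower by the 2-fold rule, at -1.26 and -0.45 against -2.32 and -2.94. Scx, another one, had 4.15 and 4.20 against 4.52 and 2.17. The tendon sum, which follows the much brighter Scx, was therefore low in Ip6k1-/- line 2 alone, whereas Mkx was lower in both Ip6k1-/- lines. The 2 adipocyte markers tested of 4 examined, Fabp4 and Pparg, summed to 4.94 and 0.362 in Ip6k1+/+ and to 3.27 and 0.548 in Ip6k1-/- MEFs, and Adipoq was in no line well above background. Of the bone markers, Sp7 and Ibsp were in no line well above background, Dmp1 was on 1 array, and Bglap1 was on all 4, with a difference of 0.55 (standard error 0.35, limma). The sum of the 9 fibroblast markers ranged from 544 to 571 in Ip6k1+/+ and from 494 to 532 in Ip6k1-/- MEFs, but Col1a1, Col1a2 and S100a4 were saturated on all 4 arrays and Vim on 3. Over the 5 that were not saturated, it was 149 and 198 in Ip6k1+/+ MEFs, against 112 and 111 in Ip6k1-/- MEFs. The part of other cell types in the values of the 8 genes was not tested.

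Several of the members are neighbours in the genome. Aspn, Omd and Ogn lie in this order on chromosome 13, and their probes span 57.1 kb in mm9. Dcn and Lum lie next to each other on chromosome 10, with probes within 55.0 kb, and Prelp and Fmod on chromosome 1, within 137 kb. The neighbours of each cluster, in the gene order of the GRCm38.p6 annotation, were chosen after the values of the members were seen. On chromosome 13, line 1 was above line 2 by 2.24, 4.98 and 2.65 in Ip6k1+/+ MEFs and by 2.43, 4.13 and 3.27 in Ip6k1-/- MEFs for Aspn, Omd and Ogn. Ecm2, a further leucine-rich repeat gene next to Aspn, was well above background on 1 array only, that of Ip6k1+/+ line 1. The nearest measured genes outside, Cenpp and Nol8, had distances of 0.25 and 0.40 and of -0.13 and -0.48. Ippk, which encodes the kinase that makes inositol hexakisphosphate, the substrate of Ip6k1, lies beyond Cenpp and had distances of 0.70 and 0.32, with a genotype difference of 0.37 (standard error 0.35, limma). The large distances on chromosome 13 thus lay at the proteoglycan genes and not at the measured genes on either side.

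On chromosome 10 the adjacent members differed from each other. Lum was above in line 1 by 3.51 and 3.81, whereas Dcn was below by 0.90 and 2.27. Kera and Epyc, the next proteoglycan genes of this cluster, were in no line well above background, and Btg1, on the other side of Dcn, had distances of 0.71 and 0.11. On chromosome 1, Prelp had distances of 3.18 and 1.57, the second of them against a line that was not well above background, and Fmod of 3.42 and 4.78. Optc, the proteoglycan gene next to Prelp, was in no line well above background, and Btg2, next to Fmod, had 0.72 and 1.24. Chil1, further along on the side of Btg2, had 3.61 and 2.73 in the same order, but was well above background on only 2 arrays. As measured, adjacent members thus shared the order of the lines on chromosomes 13 and 1 and had opposite orders on chromosome 10.

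**Figure D4:**
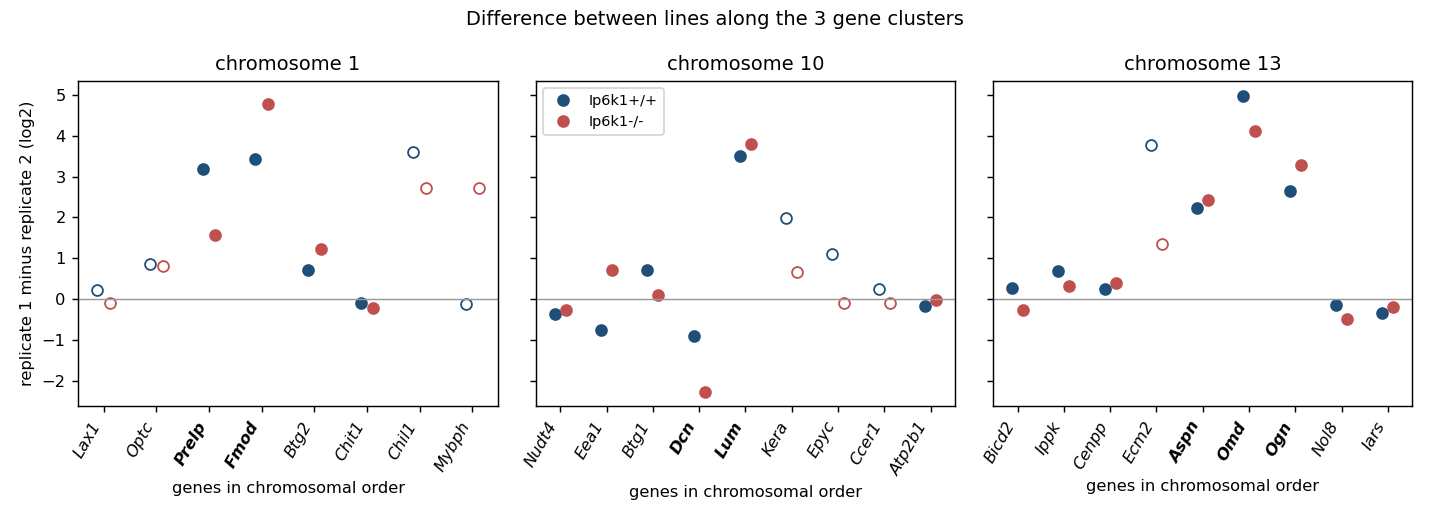
Difference between line 1 and line 2 on the log2 scale for the genes of the 3 clusters in chromosomal order, with 1 point per genotype (blue Ip6k1+/+, red Ip6k1-/-) and members in bold. Open points mark genes that were well above background on fewer than 3 arrays. Of these, Chil1 on chromosome 1 had 3.61 (Ip6k1+/+) and 2.73 (Ip6k1-/-), and Ecm2 on chromosome 13 had 3.76 and 1.36. The values of Aspn, Omd and Ogn on chromosome 13, of Lum on chromosome 10 and of Fmod on chromosome 1 stand above those of the neighbours drawn as filled points, and Dcn lies below 0. The Ip6k1-/- values of Lum and Prelp rest on a line that was not well above background, and are 1.53 and 0.21 with that line at the lowest measurable signal, the latter below Btg2 at 1.24.

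Whether promoter sequence bears on the order of the lines was not tested. The 150 bases before the start are given for the 3 genes on chromosome 13 and for Bgn, from RefSeq on GRCm38.p6. That table held 6 of the 8 members, from 250 bases before to 50 bases after the start, and Dcn and Lum were not among them. Capitals mark the E-box CANNTG, the motif read by basic helix-loop-helix factors such as the product of Scx. The sequences lie on chr13:49544293-49544442, chr13:49582312-49582461, chr13:49607865-49608014 and chrX:73483451-73483600, all on the + strand.
Aspn: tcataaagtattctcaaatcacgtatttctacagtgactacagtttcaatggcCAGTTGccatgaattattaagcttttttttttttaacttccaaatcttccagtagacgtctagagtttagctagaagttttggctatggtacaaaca
Omd: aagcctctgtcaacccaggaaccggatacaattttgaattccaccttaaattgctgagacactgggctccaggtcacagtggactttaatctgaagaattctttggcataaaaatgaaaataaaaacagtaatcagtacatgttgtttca
Ogn: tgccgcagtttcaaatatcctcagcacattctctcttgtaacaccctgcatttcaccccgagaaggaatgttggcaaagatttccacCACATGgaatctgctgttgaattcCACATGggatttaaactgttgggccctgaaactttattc
Bgn: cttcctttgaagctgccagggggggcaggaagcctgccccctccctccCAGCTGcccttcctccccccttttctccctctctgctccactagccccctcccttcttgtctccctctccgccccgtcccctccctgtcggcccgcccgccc
In the whole window of the table, the E-box was found 2 times for Aspn, 4 times for Ogn, 0 times for Omd and once for Bgn, Fmod and Prelp, beside 72.3% of 32851 mouse promoters of this length that hold it. The motif reads the same on both strands. For Fmod and Prelp, whose sequences are not printed, it lay outside the 150 bases before the start. The letters of the TATA box, TATAAA, were found 2 times each for Aspn and Ogn, with the 2 of Ogn overlapping. At any position of the window they were found in 13.6% of promoters. For Aspn and Ogn all of them lay further upstream than the 150 bases printed, so that none was near the start. The GC box GGGCGG was found only for Bgn among the 6 members, 3 times, and in 35.7% of promoters. GGAATG, the element of TEAD factors, was found once for Ogn, and in 14.7% of promoters. CCAAT was found once each for Aspn, Fmod and Prelp, and in 37.4% of promoters. The AP-1 element TGANTCA was found for none of the 6, and in 7.81% of promoters. Motifs were searched on both strands, and the letters of a motif do not show that a factor binds there.

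The genes whose profile over the 4 lines was most like that of a member were taken from 13322 genes that were well above background on all 4 arrays. Likeness was the root mean square distance of the 4 log2 values, each profile centred on its own mean. For Dcn these were Acp5 (0.231), Fgf21 (0.338) and Hic1 (0.351), a list that held no other member. For Bgn they were Gigyf1 (0.0281), Clcc1 (0.0305) and Inpp5e (0.0325), genes with small differences between lines. For Aspn they were Cx3cl1 (0.145), Afap1l2 (0.179) and Lama4 (0.183), and Ogn came at rank 13 (0.343). Conversely, the profile of Ogn was closest to Adcy4 (0.102), Pdlim4 (0.248) and Tmem45a (0.303), with Aspn at rank 6. Fmod was nearest to Dhrs3 (0.168), Nrn1 (0.242) and Itga11 (0.302), the last a receptor subunit for collagen. Omd was nearest to Lmo1 (0.229), Msx1 (0.266) and Col8a2 (0.336). Ogn was at rank 24 for Fmod and Fmod at rank 41 for Omd. The other ranks among Aspn, Fmod, Omd and Ogn ran from 38 (Omd for Fmod) to 2892 (Omd for Aspn). Fmod was at rank 451 for Aspn and Omd at rank 341 for Ogn. Dcn was at rank 12952 or beyond for Bgn, Aspn, Fmod, Omd and Ogn.

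The other small leucine-rich proteoglycan genes were mostly at or under background in these lines. Of 9 examined, 4 were tested, and Kera, Epyc, Optc and Nyx were in no line well above background. By the 2-fold rule 1 of the 4 was lower, Podn, which encodes podocan, at -2.50 and -3.67 in Ip6k1+/+ MEFs and not well above background without Ip6k1. With Ip6k1 present it was at least 3.08-fold higher. Tsku (tsukushi) differed by -0.40 (standard error 0.49) and Podnl1 by -0.90 (standard error 0.86) in limma. The median of the 4 was -0.65, 0 were higher by the rule, and 0 passed limma, with 1 at an unadjusted p below 0.05.

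The enzymes that build the sugar chains were taken in 3 lists. The 6 genes for the linker by which a chain is attached to the core protein were all tested, 0 were lower or higher by the 2-fold rule, and their median difference was 0.01. Fam20b, the xylose kinase of the linker, differed by 0.14 and Xylt2, which starts it, by -0.24. Of 16 genes for chondroitin and dermatan sulfate, 13 were tested, and 2 were lower by the rule and 0 higher, with 11 of 13 differences below 0 and a median of -0.30. The 2 were Chsy3, a chondroitin synthase, and Csgalnact1, which begins the chain. Chsy3 was not well above background in Ip6k1-/- MEFs and at least 3.09-fold and 1.95-fold higher in Ip6k1+/+ MEFs on its 2 tested probes. Csgalnact1 had -0.31 and -1.59 against -2.13 and -3.06, a difference of -1.65 (standard error 0.59, limma). Of 7 keratan sulfate genes 5 were tested, 0 passed the rule in either direction, and the median was -0.10. B4galt1 differed by -0.10 and B3gnt2 by 0.31, both enzymes of the repeating chain. None of the enzymes passed limma's adjusted threshold, and 0, 2 and 0 genes of the 3 lists had an unadjusted p below 0.05.

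Some members are cut or bound outside the cell by other proteins, whose genes were also examined. Of 5 genes for the proteases that trim propeptides and their enhancers, 4 were tested, 1 was higher by the 2-fold rule and 0 lower, with a median of 0.48, or 0.91 without the saturated Pcolce, and 2 at an unadjusted p below 0.05. The 1 was Tll1, a protease of the Bmp1 family, at -2.56 and -1.50 against -0.05 and -0.58, a difference of 1.72 (standard error 0.47, limma). Bmp1, which removes the propeptide of biglycan, differed by -0.38, while the probe of its enhancer Pcolce was saturated on all 4 arrays and its difference is not given. Among 12 receptors and growth factors tested of 13, 1 was lower and 0 higher, and the median was -0.29, with 2 at an unadjusted p below 0.05. The 1 was Egfr, the receptor that decorin binds, with 2.98 and 2.60 against 1.45 and 1.97 on its brightest probe, a difference of -1.08 (standard error 0.28, limma). That probe did not pass the 2-fold rule, because Ip6k1-/- line 2 was less than 0.9 below the mean, but 4 other Egfr probes did. Tgfb3 differed by 0.73 and Lrp1, a receptor that takes up decorin, by -0.32.

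The 7 fibrillar collagen genes, whose products the members bind, were all tested, and 0 passed the 2-fold rule in either direction, with 2 at an unadjusted p below 0.05. The brightest probes of Col1a1 and Col1a2 were saturated on 4 arrays, so that their differences are not given. The median of the list was -0.20 with these 2 and -0.52 over the other 5. By the mean difference alone, Col3a1 (-1.25) and Col5a3 (-1.55) were 2-fold lower. Col5a1 was at -0.52, Col11a1 at -0.20 and Col5a2 at 0.15. Dimmer Col1a1 probes that were not saturated differed by -0.60 and -0.70. Of 13 other genes for chondroitin sulfate and related proteoglycans, 5 were tested, 0 passed the rule and 0 had an unadjusted p below 0.05, with a median of -0.10. Hspg2, which encodes perlecan, differed by -0.14. Cspg4 had 3.94 and 1.53 against 4.18 and 1.69, a genotype difference of 0.20 with the same order of lines as Aspn. In all of these lists 0 genes passed limma's adjusted threshold.

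**Figure D5:**
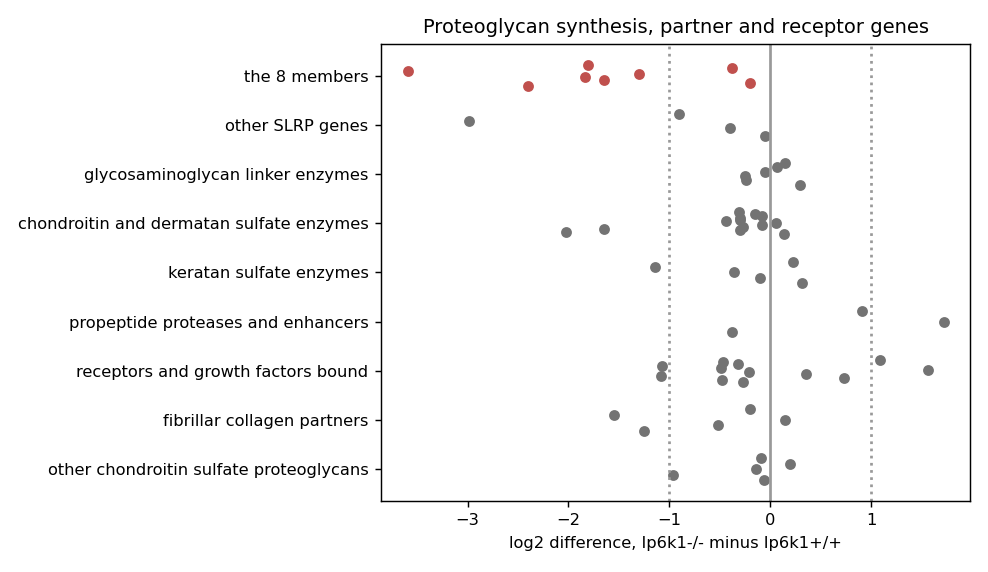
Log2 difference of Ip6k1-/- minus Ip6k1+/+ MEFs for the brightest tested probe of each gene, with 1 point per gene, the 8 members in red and the related lists in grey. Dotted lines mark a 2-fold difference, and probes saturated on all 4 arrays are left out. The 8 members lie below 0, from -3.59 to -0.20, with a median of -1.73, and the points of the lists have medians from -0.65 to 0.91.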

How the data were processed

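Total RNA of 4 MEF lines was labelled with Cy3 and hybridised to 1 single-colour Agilent 4x44k whole-genome array each, all on 1 slide, so that slide could not be used as a block. The authors deposited the processed spot intensity of each array, on a linear scale and background-corrected by Agilent Feature Extraction 10.5.1.1. They also deposited log2 values shifted to the 75th percentile in GeneSpring, which matched those computed here up to 1 constant for each array (median deviation 0.0025).

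The intensity was taken to log2, and each array's 75th percentile over 43379 non-control spots was subtracted. Spots flagged as outliers (96 to 133 per array) were left out, saturated spots were kept, and spots of 1 probe were averaged. Of 41174 probes, 21572 were well above background in both lines of a genotype and were fitted in limma 3.58.1 (R 4.3.3) with lmFit and eBayes, using the variance trend, and p-values were adjusted after Benjamini-Hochberg over all of them. The fit was tested on simulated data. The probe of a gene was the tested one with the highest mean, and a gene was counted by the 2-fold rule if any probe passed. The p-values measure the spread between 2 lines per genotype, and the number of arrays limits the precision.

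Samples were grouped by the genotype in the labels. Members and lists were chosen with earlier results of these data known. Named are the 8 members with their probes, Ip6k1, Xist, Eif2s3y, of each list up to 4 genes past the 2-fold rule or else the 2 with the highest mean, and the 3 nearest profiles of each member above background on all arrays. Comp, Fabp4, Pparg, Sox9, Scx, Kdr, Cd68, Krt5, Bglap1, Dmp1 and the genomic neighbours were named after their values were seen. So were the fibrillar collagens other than Col1a1 and Col1a2, and the dimmer Col1a1 probes. The markers were fibroblast, tendon, cartilage, bone, skeletal muscle, epithelial, endothelial, haematopoietic and adipocyte genes. Alternatives were quantile normalization, normexp background correction (offset 50), a median shift, the deposited log2 values, other filters on dim probes, outlier spots kept, a replicate block, limma without the variance trend, the mean difference alone, and leaving out each array. Raising dim values to the lowest signal well above background, leaving saturated probes out of list medians, and counts at an unadjusted p, were added after seeing the data. Protein and cell assays of the study were not analysed here.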

Additional observations from a re-analysis of the deposited data

How the results depend on the processing

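No member passed limma's adjusted threshold in any of the settings run. By the 2-fold rule, 2 members were lower and 0 higher in most settings. With probes well above background on all 4 arrays 1 was lower (Dcn), and by the mean difference alone 6 were (Aspn, Dcn, Fmod, Lum, Ogn and Prelp). Leaving out 1 array gave 2 to 7 lower and 0 to 2 higher members. Without Ip6k1+/+ replicate 2 the 4 lower were Aspn, Lum, Ogn and Prelp, and without Ip6k1-/- replicate 1 all but Bgn were among the 7. Without Ip6k1-/- replicate 2, Fmod and Omd were higher. For the mean difference alone and for leaving out 1 array, the share of all gene names was not computed. Of 124 differences under the alternatives, 6 changed sign, all on leaving out 1 array. Many of the 124 could not change: the filters on dim probes, the replicate block and limma without the variance trend leave a difference as it is. Keeping outlier spots changed none of the members' differences either. The share that changed sign is therefore no measure of stability. Adjusted p-values of members were never below 0.210 in this design of 2 against 2, so that staying above the threshold says nothing about stability. Without Ip6k1+/+ replicate 1, Fmod was at 0.41 and Omd at 2.11. Without Ip6k1-/- replicate 2, Fmod was at 1.09, Lum at 0.071 and Omd at 1.69, and without Ip6k1+/+ replicate 2, Bgn was at 0.19. Over the 4 arrays left out in turn, the difference ran from -0.595 to 0.19 for Bgn, from -3.69 to 1.09 for Fmod, from -3.74 to 0.071 for Lum and from -2.87 to 2.11 for Omd. It ran from -3.53 to -1.27 for Dcn, from -5.18 to -2.00 for Prelp, from -2.87 to -0.44 for Aspn and from -3.45 to -0.17 for Ogn. With normexp background correction Prelp was at -1.71. A lone array was assumed to vary like the other genotype. A median shift moved the median of all probes from 0.05 to 0.10 on the log2 scale.

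Nothing in the labels pairs lines of the same replicate number, and there were only 2 numbers. With the replicate number as a block, 0 members passed limma's adjusted threshold, with adjusted p-values from 0.210 to 0.866. With this block 6 members rather than 2 had an unadjusted p below 0.05 (Aspn, Dcn, Fmod, Lum, Ogn and Prelp). Over all 21572 probes tested, the number below 0.05 in limma rose as well, from 721 to 1765. Under the block the standard error was 0.21 for Aspn and 0.23 for Ogn, and all differences are unchanged by its construction. In the other settings 0 to 3 members had an unadjusted p below 0.05. The 2 lines per genotype limit every value, and Lum and Prelp were not well above background in Ip6k1-/- replicate 2.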

Other observations

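Other matrix and sugar chain genes, named after their values were seen, had the same order of lines as Omd and Fmod. Prg4, which encodes lubricin, a lubricating proteoglycan of joints, was at -0.29 on the log2 scale in Ip6k1+/+ line 1 and at 0.89 in Ip6k1-/- line 1, and was not well above background in line 2 of either genotype. Chst7, a sulfotransferase of chondroitin chains, was at 4.17 and -1.80 in the Ip6k1+/+ lines and at 2.60 and -0.11 in the Ip6k1-/- lines, with a genotype difference of 0.06 (standard error 2.14, limma). Fabp4, a fatty acid carrier used as an adipocyte marker, was at 1.56 and -3.91 against 1.54 and -4.10. Thy1, a cell surface marker of fibroblasts, had the opposite order, with 1.41 and 6.02 against 3.98 and 5.52. For these genes the lines of one genotype lay further apart than the genotype means.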
